A study of Mus musculus with 4 samples.

Results

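Glutathione and NRF2-linked antioxidant genes were followed in the liver of male mice fed trans-10, cis-12 conjugated linoleic acid (CLA), against mice fed linoleic acid. The 10 genes listed were Gclm, Gclc, Gsr, Gsta3, Gsta4, Gstm1, Gstp1, Nqo1, Txnrd1 and Hmox1. A probe counted as a member where the gene symbol in its description, or its RefSeq accession, was one of these. By this rule 8 of the 10 genes had a probe, out of 9957 gene symbols on the array, and 9 probes of 20868 belonged to them. Gsr had 2 probes and the other genes had 1 each. No probe was found by the rule for Gclc. For Gsta4 there was only a probe whose description names glutathione S-transferase alpha 4 without a symbol or a RefSeq accession, and its values are given apart from the member counts.

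Both groups were male mice of a polygenic obese line, sampled on day 14. One group received 1% trans-10, cis-12 CLA in the diet and the control group 1% linoleic acid, an ordinary dietary fatty acid with the same number of carbons. Per the labels, liver RNA of 4 or 5 mice was pooled for each labelling, and CLA liver was hybridised beside control liver on 4 Agilent two-colour arrays. The CLA sample carried Cy5 (red) on arrays 1 and 2, and Cy3 (green) on arrays 3 and 4. Whether arrays shared pools is not stated, so p-values reflect array-to-array spread, which may be technical. Pooling also hides the spread between single mice, and no lean line or other diet was sampled.

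Glutathione is a small peptide thiol that keeps cell proteins and lipids reduced, and the liver makes much of the body's supply. Gclc and Gclm form the ligase of the first and rate-limiting step of its synthesis, transferases couple it to reactive compounds, and Gsr restores it from its oxidised form. The transcription factor NRF2 (Nfe2l2), held back by Keap1 in unstressed cells, pairs with small MAF proteins and binds antioxidant response elements near many of these genes, Nqo1, Txnrd1 and Hmox1 among them.

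Signals were strong enough on most of each array, with 80.3% to 95.8% of spots well above local background per array and channel. All 9 member probes were tested, and all of their 72 channel values were well above background, with none saturated, flagged as an outlier or missing. Of the hepatocyte markers, Apoa1 and Ttr had a tested probe, with a summed intensity of 27130 to 37054 in CLA liver and 13809 to 44323 in control liver. Array 4 stood apart in the summed markers of exocrine pancreas, of which 3 of 6 genes were tested. As log2 CLA over control, Prss2 stood at 2.60 and Cela2a at 2.41 on array 4. Pnlip stood at 0.69 there and at 0.58 on array 2. The log2 ratio of their summed intensity, CLA over control, was 2.18 on array 4 and -0.06 to 0.15 on the other arrays, with sums of 303 to 1561 in CLA liver and 316 to 417 in control liver. Values without array 4 are therefore given for the members. Other marker sums also differed between arrays. On arrays 1 to 4 the log2 ratio of the hepatocyte sum was -0.25, -0.70, 0.40 and 1.20. Its markers had opposite signs on every array. Apoa1 stood at -0.29, -0.76, 0.47 and 1.32, and Ttr at 0.37, 0.17, -0.49 and -0.22. For the stellate cell sum it was -0.80, -0.49, 1.16 and 1.38. Acta2 stood at -0.91, -0.56, 1.36 and 1.68, Reln at -0.21, -0.15, -0.20 and -0.19, and Lrat at 0.15, -0.06, -0.23 and 0.32. For the blood cell sum the log2 ratio was -0.58, 0.98, -0.22 and -1.51. Hba-a1 stood at -0.60, 1.00, -0.22 and -1.55, while S100a8, Ptprc and Cd3e stayed between -0.32 and 0.56. For the bile duct and endothelial cell sums the log2 ratio stayed between -0.11 and 0.16. All these ratios are as measured. The hepatocyte and stellate cell sums lay below 0 where CLA was in Cy5 and above 0 where it was in Cy3. The part of the dye in them was not tested. In whole liver, fewer cells of a type and less RNA per cell cannot be told apart.

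None of the 9 member probes passed the test in either direction (limma with a dye term, Benjamini-Hochberg adjusted p under 0.05 over all 20214 probes tested), where 14 probes of the whole array did, 0.0693% of those tested. At an unadjusted limma p under 0.05 there were 3 of 9 member probes, 1 higher with CLA (Gclm) and 2 lower (Gsta3 and Gstp1). Over all probes 15.9% were at that level, 8.76% higher and 7.17% lower. The fitted effect lay above 0 for 4 member probes and below 0 for 5 (median log2 -0.03), against 52.3% above 0 and a median of 0.01 over all probes. With median centring 2 lay above 0 and 7 below (median -0.24), against 48.2% above 0 over all probes. At that setting 0 member probes were higher and 4 lower at an unadjusted limma p under 0.05. Over all probes, 3820 of 20214 were at that level in either direction. Without array 3 there were 6 above 0 and 3 below (median 0.052), and without array 4 there were 2 above 0 and 7 below (median -0.060). Over all probes 52.2% and 51.1% lay above 0 in these fits. No member probe had the same sign of the measured ratio on all 4 arrays, a pattern that 9.21% of all probes showed. The dye effect, the part of a probe's ratio that follows the dye and not the diet, passed the test for 4 of 9 member probes (28% of all probes). It exceeded the diet effect in size for 5 of 9, a count not made over all probes, so it cannot be read as particular to the members.

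**Figure D1:**
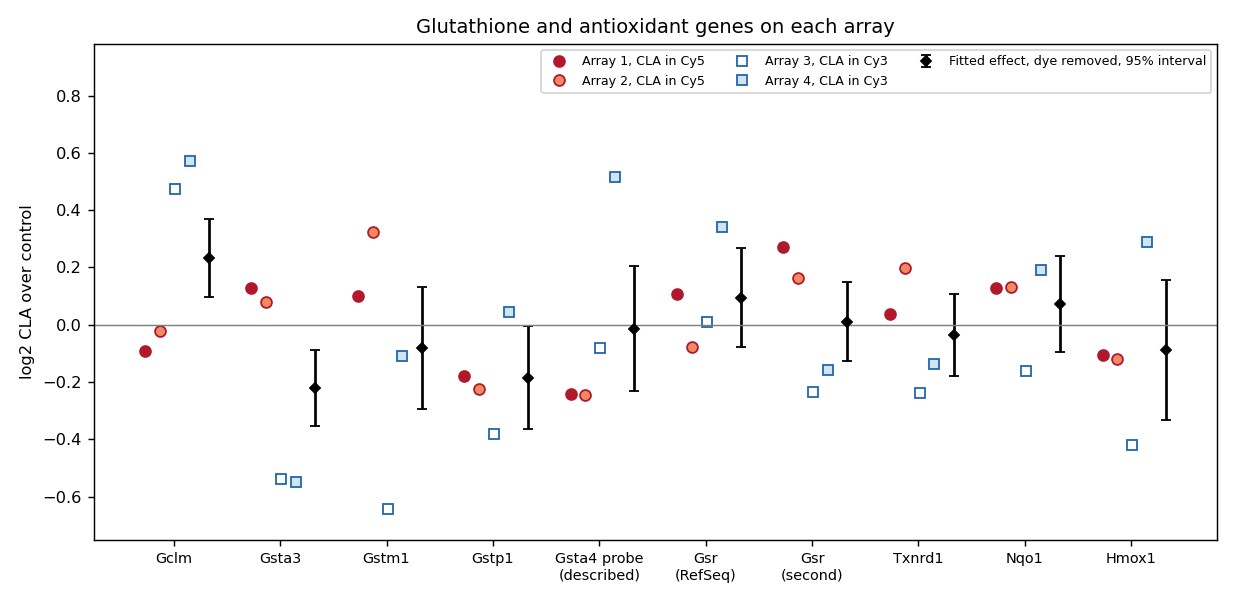
Log2 ratio of CLA over control (vertical axis) for each member probe and for the probe described as Gsta4, as measured on the 4 arrays, with red circles for CLA in Cy5 and blue squares for CLA in Cy3. Black diamonds are the fitted diet effect with its 95% interval. For Gclm both squares (0.47 and 0.57) lie above both circles (-0.09 and -0.02), and for Gsta3 both squares (-0.54 and -0.55) lie below both circles (0.13 and 0.08).

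The promoter windows of Gclm and Gsta3 are printed because these genes had the highest and the lowest fitted effect of the members, and that of Txnrd1 because it is the other member with a motif match. RefSeq windows from 250 bases before to 50 bases after the start, on assembly GRCm38.p6, were found for 6 of the 10 genes (9 windows in all). Each was searched on both strands for TGACNNNGC, the core letters of the antioxidant response element, whose reverse complement is GCNNNGTCA. The 300-base windows below read 5′ to 3′ on the strand of the gene, and capitals mark the match. The Gclm window lies at chr3:122245307-122245606 on the plus strand, with the match on the opposite strand, 134 bases before the start. The Gsta3 window lies at chr1:21240335-21240634 on the plus strand, with the match on the same strand, 121 bases before the start. The Txnrd1 window, the second of its 3, lies at chr10:82858956-82859255 on the plus strand, with the match on the opposite strand, 92 bases before the start.
Gclm: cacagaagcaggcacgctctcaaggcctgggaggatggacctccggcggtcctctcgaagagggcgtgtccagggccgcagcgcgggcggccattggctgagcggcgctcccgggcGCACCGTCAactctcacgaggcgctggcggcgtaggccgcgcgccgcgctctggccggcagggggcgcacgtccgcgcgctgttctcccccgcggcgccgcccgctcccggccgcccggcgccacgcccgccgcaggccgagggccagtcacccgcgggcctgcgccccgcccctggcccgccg
Gsta3: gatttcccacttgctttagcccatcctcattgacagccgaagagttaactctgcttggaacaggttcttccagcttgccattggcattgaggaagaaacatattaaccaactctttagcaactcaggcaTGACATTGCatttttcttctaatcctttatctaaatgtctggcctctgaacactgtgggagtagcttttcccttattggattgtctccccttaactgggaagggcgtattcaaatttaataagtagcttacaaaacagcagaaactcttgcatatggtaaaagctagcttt
Txnrd1: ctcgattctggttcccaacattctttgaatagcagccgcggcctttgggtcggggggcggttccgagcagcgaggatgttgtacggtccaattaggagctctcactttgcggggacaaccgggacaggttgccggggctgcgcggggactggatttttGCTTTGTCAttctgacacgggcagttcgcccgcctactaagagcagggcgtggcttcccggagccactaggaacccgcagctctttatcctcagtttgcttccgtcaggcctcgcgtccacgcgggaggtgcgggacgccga
The same letters were found in 4071 of 32851 RefSeq windows, 12.4% of them. They were not found in the windows of Gstm1, Gstp1 and Nqo1 or in the other windows of Txnrd1. Elements with other letters, or outside the 300 bases, were not sought, so these genes cannot be said to lack one. The genes with a match held the highest fitted effect (Gclm), the lowest (Gsta3) and one close to 0 (Txnrd1).

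Glutathione synthesis was represented by Gclm, the modifier subunit of the rate-limiting ligase (RefSeq NM_008129). The normalized intensity of Gclm was 2045, 2647, 4546 and 2738 in CLA liver on arrays 1 to 4, against 2179, 2689, 3275 and 1842 in control liver. Its log2 ratio of CLA over control was -0.09 and -0.02 on arrays 1 and 2 and 0.47 and 0.57 on arrays 3 and 4. CLA liver was thus the brighter sample only on the arrays where it carried Cy3, and on the others both diets were close to equal. With the probe's dye effect of -0.29 removed (log2 Cy5 over Cy3, adjusted p = 0.00947), the log2 ratios were 0.20, 0.27, 0.18 and 0.28. The dye effect was fitted on these same arrays, which sets the mean of each dye orientation equal to the fitted diet effect. Their common sign thus shows only that arrays of the same orientation were close, and is no separate evidence from 4 arrays. The fitted diet effect on Gclm was 0.23 ± 0.06 (log2, SE, n = 4 arrays, 95% interval 0.10 to 0.37), 1.18-fold, with a limma p of 0.00435 and an adjusted p of 0.158. It was 0.21 without array 4, 0.16 where the dye effect was scaled to equal size on every array, and 0.00092 where arrays were centred on the median in place of loess.

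The member transferases lay below 0 on all 3 probes without passing the test, but on 2 of 3 without array 3. Their median was -0.18 on the log2 scale, -0.079 without array 3, -0.47 under median centring and -0.14 with a dye effect of equal size. As measured they did not share a sign: the median of the 3 was 0.10 and 0.08 on arrays 1 and 2, and -0.54 and -0.11 on arrays 3 and 4.

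Gsta3 encodes an alpha-class transferase that is abundant in mouse liver (RefSeq NM_010356). The normalized intensity of Gsta3 was 11671, 14075, 10730 and 7075 in CLA liver on arrays 1 to 4, against 10676, 13304, 15588 and 10352 in control liver. As log2 ratios these were 0.13 and 0.08 on arrays 1 and 2 and -0.54 and -0.55 on arrays 3 and 4, so that CLA liver was the dimmer sample only where it carried Cy3. The dye effect was 0.32 (adjusted p = 0.00529), the opposite sign of that of Gclm, and with it removed the log2 ratios were -0.20, -0.24, -0.21 and -0.22. As for Gclm, this removal sets the mean of each dye orientation equal to the fitted effect, so the common sign is no separate evidence. The fitted diet effect on Gsta3 was -0.22 ± 0.06 (95% interval -0.35 to -0.09), with a limma p of 0.00513 and an adjusted p of 0.168. It was -0.22 without array 4 and -0.14 with a dye effect of equal size. With median centring it was -0.48 ± 0.11 and passed the test (adjusted p = 0.0364), the only setting and the only member probe for which this was so.

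Gstp1, the pi-class transferase, was measured by a probe with RefSeq accession NM_013541, which the gene table assigns to Gstp1, while the description in the files names Gstp2. These neighbouring genes are nearly identical in sequence, and the probe may take up RNA of both. Its normalized intensity was 17051, 30323, 27750 and 20177 in CLA liver on arrays 1 to 4, against 19290, 35404, 36095 and 19578 in control liver. Gstp1 had log2 ratios of -0.18, -0.22 and -0.38 on arrays 1 to 3 and 0.04 on array 4, the lower value being in CLA liver on 3 of 4 arrays. Unlike Gclm and Gsta3, Gstp1 had a dye effect close to 0 (-0.02, adjusted p = 0.897), so its sign on a single array did not follow the dye. The fitted effect was -0.18 ± 0.08 (95% interval -0.36 to -0.0038), with a limma p of 0.0463 and an adjusted p of 0.305. It was -0.29 without array 4 and -0.08 without array 3, and -0.47 with median centring (adjusted p = 0.0775).

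Gstm1, a mu-class transferase with several close relatives in the mouse genome (RefSeq NM_010358), varied most between arrays of the 3. Its normalized intensity was 13982, 21123, 19304 and 11781 in CLA liver on arrays 1 to 4, against 13027, 16859, 30144 and 12710 in control liver. Gstm1 had log2 ratios of 0.10 and 0.33 on arrays 1 and 2 and -0.64 and -0.11 on arrays 3 and 4. The fitted effect on Gstm1 was -0.08 ± 0.09 (95% interval -0.29 to 0.13, adjusted p = 0.669), beside a dye effect of 0.29 (adjusted p = 0.047). It was -0.21 without array 4 and 0.05 without array 3, so its direction rested on array 3.

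The probe described as Gsta4, an alpha-class transferase that acts on the lipid peroxidation product 4-hydroxynonenal, was printed at 10 spots. Its log2 ratio, averaged over the spots, was -0.24, -0.24 and -0.08 on arrays 1 to 3 and 0.51 on array 4. The SD over the 10 spots was 0.05, 0.19, 0.06 and 0.09 on arrays 1 to 4. On array 4 every spot lay between 0.34 and 0.68, and on array 1 every spot lay between -0.33 and -0.17. The fitted effect was -0.01 ± 0.09 (95% interval -0.23 to 0.20, adjusted p = 0.956), 0.14 without array 3 and -0.16 without array 4. Over the 50 probes printed at 10 or more spots the median SD within an array was 0.09, a measure of the error of a single spot on these arrays.

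**Figure D2:**
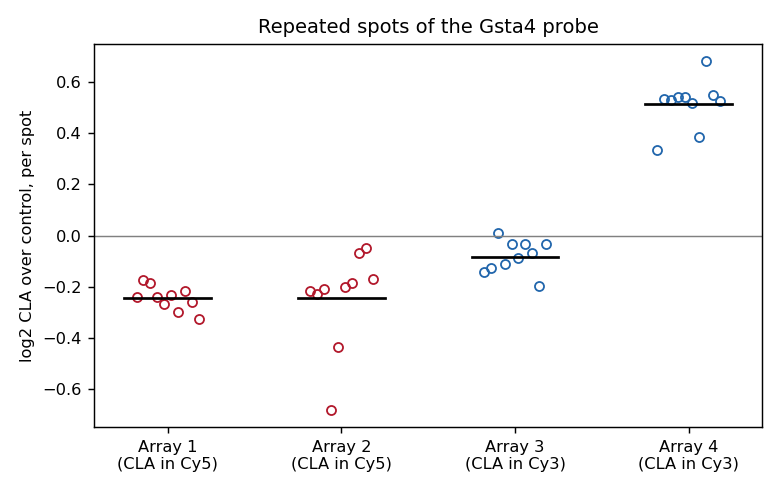
Log2 ratio of CLA over control (vertical axis) at each of the 10 spots of the probe described as Gsta4 on arrays 1 to 4. Horizontal lines are the mean of the spots, -0.24, -0.24, -0.08 and 0.51, and the spots of array 4 lie above those of the other arrays.

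Gsr, the reductase that restores glutathione, was measured by 2 probes. On the RefSeq probe (NM_010344) the normalized intensity was 494, 452, 660 and 398 in CLA liver on arrays 1 to 4, against 458, 477, 656 and 314 in control liver. That probe had log2 ratios of 0.11, -0.08, 0.01 and 0.34, and its fitted effect was 0.09 ± 0.07 (95% interval -0.08 to 0.27, adjusted p = 0.53), or 0.01 without array 4. The second probe, named by its description, had a log2 ratio of 0.27 and 0.16 on arrays 1 and 2 and -0.24 and -0.16 on arrays 3 and 4, a pattern that followed the dye (dye effect 0.21, adjusted p = 0.0346). Its fitted effect was 0.01 ± 0.06 (95% interval -0.13 to 0.15, adjusted p = 0.945), or -0.0086 without array 4. The fitted effects of the Gsr probes differed by 0.08, and each lay inside the 95% interval of the other, although their measured ratios had opposite signs on arrays 2, 3 and 4.

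Txnrd1 encodes the cytosolic thioredoxin reductase (RefSeq NM_015762). Its normalized intensity was 778, 1231, 1247 and 766 in CLA liver on arrays 1 to 4, against 758, 1073, 1471 and 841 in control liver. The log2 ratio of Txnrd1 was 0.04 and 0.20 on arrays 1 and 2 and -0.24 and -0.14 on arrays 3 and 4, again with CLA liver the dimmer sample only in Cy3. The fitted effect was -0.03 ± 0.06 (95% interval -0.18 to 0.11, adjusted p = 0.795). It was -0.06 without array 4, and it changed sign, to 0.0025, with a dye effect of equal size.

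Nqo1, a quinone reductase widely used as a readout of NRF2, was the dimmest member. Its foreground was 1.11 to 1.35 times the local background in CLA liver and 1.12 to 1.30 times in control liver, although each spot was marked well above background. The normalized intensity was 85.4, 91.3, 109.6 and 93.1 in CLA liver on arrays 1 to 4, against 78.1, 83.4, 122.7 and 81.6 in control liver. Nqo1 had log2 ratios of 0.13, 0.13, -0.16 and 0.19, higher in CLA liver on 3 of 4 arrays. The fitted effect was 0.07 ± 0.07 (95% interval -0.10 to 0.24, adjusted p = 0.626), and -0.02 without array 4. It was 0.15 with a background offset of 10 in place of 50. In the deposited log ratios, converted to log2, Nqo1 stood at 0.39, 0.33, -0.35 and 0.42, with the same sign on each array and a larger size. The mean of those, 0.20, is 1.15-fold with an adjusted p of 0.539 (limma on the deposited log ratios). In the authors' deposited table of 775 probes Nqo1 is the only member, with a ratio of 1.33 and a p-value of 0.00134, where the largest p-value listed is 0.00184. How the authors tested it is not stated in the labels or headers.

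Hmox1 encodes the inducible heme oxygenase, which frees iron and biliverdin from heme (RefSeq NM_010442). Its normalized intensity was 396, 455, 494 and 361 in CLA liver on arrays 1 to 4, against 426, 494, 660 and 296 in control liver. Hmox1 had log2 ratios of -0.11, -0.12 and -0.42 on arrays 1 to 3 and 0.29 on array 4. The fitted effect was -0.09 ± 0.11 (95% interval -0.33 to 0.16, adjusted p = 0.684), the widest interval of the 9 member probes. It was -0.27 without array 4 and 0.09 without array 3, so arrays 3 and 4 pulled it in opposite directions. Hmox1 is also made by Kupffer cells, the macrophages of the liver. Of 9 Kupffer and macrophage markers 7 were tested, 4 above 0, and none passed the test. The log2 ratio of their summed intensity was -0.11, -0.47, -0.04 and 0.68 on arrays 1 to 4, over sums of 3216 to 4519 in CLA liver and 2095 to 4792 in control liver. Array 4 had the highest ratio both for Hmox1 and for these markers, but the lowest ratios fell on different arrays, 3 for Hmox1 and 2 for the markers. The summed markers of hepatocytes (1.20), stellate cells (1.38) and exocrine pancreas (2.18) were also highest on array 4. Those of blood cells (-1.51) and endothelial cells (-0.11) were lowest there, and those of bile duct cells were neither. Single markers differed from these sums on array 4. Of blood cells, Hba-a1 stood at -1.55, Cd3e at -0.03, Ptprc at 0.19 and S100a8 at 0.56. Of hepatocytes, Ttr stood at -0.22 and Apoa1 at 1.32. Of endothelial cells, Cdh5 stood at -0.37, Stab2 at -0.36, Lyve1 at 0.19, Kdr at 0.23 and Pecam1 at 0.32. The part of the markers in the result was not tested.

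Set side by side, the measured ratio of the synthesis gene lay above those of all 3 transferases where CLA was in Cy3, and below those of Gsta3 and Gstm1 where it was in Cy5. The measured log2 ratio of Gclm minus that of Gsta3 was -0.22 and -0.10 on arrays 1 and 2, and 1.01 and 1.12 on arrays 3 and 4. Gclm minus Gstm1 had the same split, with -0.19 and -0.35 where CLA was in Cy5 and 1.12 and 0.68 where it was in Cy3. Gclm minus Gstp1 was above 0 on all 4 arrays, at 0.09, 0.20, 0.85 and 0.53, and averaged 0.42. These differences were not tested. Ordered by fitted effect the probes ran from Gclm over Gsr (RefSeq probe), Nqo1, Gsr (second probe), Txnrd1, Gstm1, Hmox1 and Gstp1 to Gsta3. The 95% intervals of all neighbours in this order overlapped, while that of Gclm did not overlap those of Gstp1 and Gsta3. Each of the redox and heme enzymes had an interval that held 0.

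**Figure D3:**
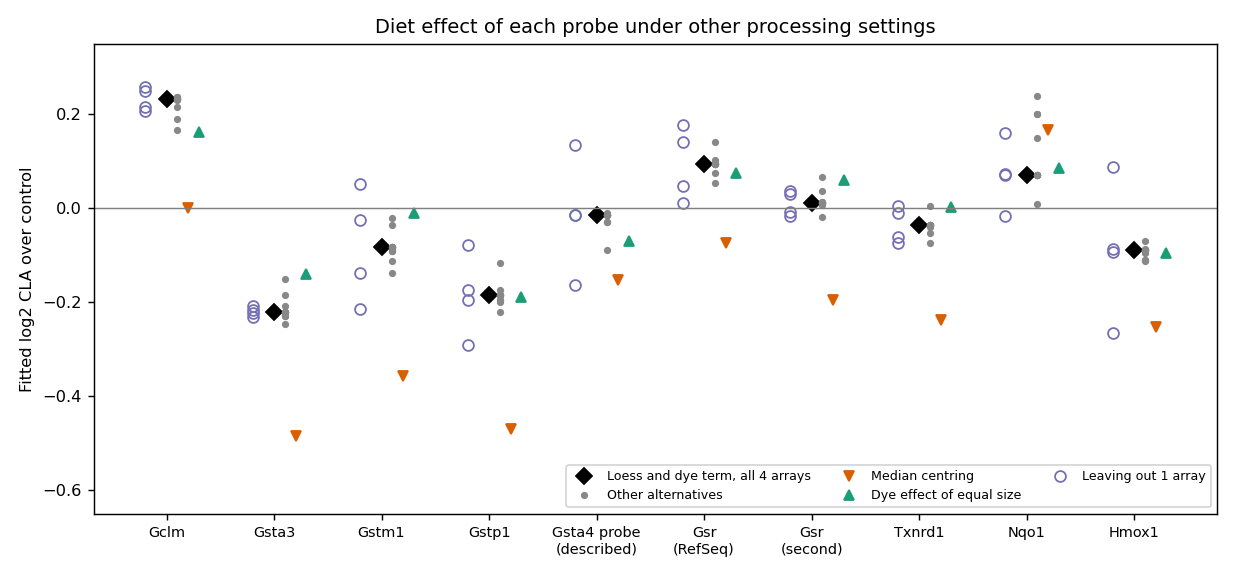
Fitted log2 effect of CLA over control (vertical axis) for each member probe and the probe described as Gsta4, under the processing used here (black diamonds) and under the alternatives. Gclm stays above 0, though at 0.00092 with median centring (orange triangles), and Gsta3 and Gstp1 stay below 0, while Gstm1, Txnrd1, Nqo1, Hmox1, both Gsr probes and the Gsta4 probe change sign under at least 1 alternative.

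Genes of the pathway outside the members were read from 8 lists that together held 108 such genes, 73 of them tested on 76 probes. None passed the test. The fitted effect lay above 0 for 53 of 76 probes (median log2 0.05), but for only 26 of 76 with median centring (median -0.08), where all probes had medians of 0.01 and -0.0080. At an unadjusted limma p under 0.05 there were 19 of 76 probes, 25% against 15.9% of all probes, of which 16 were higher and 3 lower with CLA. With median centring 6 were higher and 14 lower, and with a dye effect of equal size 10 were higher and 2 lower (26.3% and 15.8% of the 76). Over all 20214 probes, 3820 and 1912 were at that level in these settings. The direction of these genes as a group therefore turned with the scaling. Genes named here are the 2 of each list with the smallest p.

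In the list of glutathione synthesis, supply and breakdown, 6 of 7 probes outside the members lay above 0 (3 of 7 with median centring). Chac1, which breaks glutathione down, stood at 0.14 ± 0.07 (adjusted p = 0.35). Of 16 further transferase probes 8 lay above 0, and 5 of 16 with median centring. Gstm7, a mu-class transferase, stood at -0.20 ± 0.06 (adjusted p = 0.186). Its measured log2 ratio was -0.21, -0.22, -0.25 and -0.14, lower in CLA liver on 4 of 4 arrays, with a dye effect of -0.0080. No member probe had such a common sign as measured, which 9.21% of all probes had.

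Among 21 further probes of glutathione, thioredoxin and peroxidase enzymes, 14 lay above 0, and 6 with median centring. Gpx2, a glutathione peroxidase best known from gut epithelium, stood at 0.24 ± 0.07 (adjusted p = 0.2), and at 0.09 with a dye effect of equal size. Its measured log2 ratio was -0.53 and -0.20 on arrays 1 and 2 and 0.94 and 0.76 on arrays 3 and 4. Prdx3, the mitochondrial peroxiredoxin, stood at -0.18 ± 0.06 (adjusted p = 0.238), with a dye effect of 0.46. In the list of quinone, heme and iron enzymes 2 of 4 probes outside the members lay above 0 (1 of 4 with median centring). Ftl1, the ferritin light chain that stores iron, stood at 0.41 ± 0.08 (adjusted p = 0.0983). Its measured log2 ratio was -0.41 and -0.44 on arrays 1 and 2 and 1.03 and 1.46 on arrays 3 and 4, and with a dye effect of equal size it was 0.21. Fech, which inserts iron into heme, stood at -0.20 ± 0.06 (adjusted p = 0.197), with a dye effect of 0.55.

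For NADPH, the electron source of both reductases, 4 of 6 probes lay above 0 (2 of 6 with median centring and with a dye effect of equal size). Tkt, the transketolase of the pentose phosphate pathway, stood at 0.26 ± 0.06 (adjusted p = 0.142), and at 0.10 with a dye effect of equal size. Me1, the cytosolic malic enzyme, stood at 0.37 ± 0.13 (adjusted p = 0.24). NRF2 itself (Nfe2l2, given outside the rule by p) stood at 0.0038 ± 0.08 (adjusted p = 0.986). Of 11 probes for NRF2 and its partners 8 lay above 0, and 5 with median centring. Bach1, a repressor at NRF2 sites, stood at 0.24 ± 0.07 (adjusted p = 0.184), and Mafg, a small MAF partner, at 0.19 ± 0.06 (adjusted p = 0.23). Their dye effects were -0.17 and -0.45.

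In the list of phase II and export genes all 8 probes lay above 0, with a median of 0.12, but 3 of 8 with median centring (median -0.03) and 6 of 8 with a dye effect of equal size. Ephx1, the microsomal epoxide hydrolase, had the highest fitted effect of the pathway genes, 0.54 ± 0.09 (adjusted p = 0.066). Its measured log2 ratio was -0.16 and 0.22 on arrays 1 and 2, and 0.89 and 1.22 on arrays 3 and 4. With a dye effect of equal size Ephx1 stood at 0.42 (adjusted p = 0.267), and without array 3 it passed the test at 0.62 (adjusted p = 0.0468), as did Ftl1 at 0.52 (adjusted p = 0.0464). Abcc2, which exports glutathione conjugates into bile, stood at 0.32 ± 0.07 (adjusted p = 0.112), with measured ratios of -0.04, -0.02, 0.55 and 0.80.

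The 3 metallothioneins, small metal-binding proteins, lay above 0, with 1 of 3 above 0 under median centring and with a dye effect of equal size. Mt3 stood at 0.30 ± 0.07 (adjusted p = 0.154), with a dye effect of -0.53. Mt1 stood at 0.03 ± 0.27 (adjusted p = 0.964), and its measured log2 ratio was -1.73, -0.21, 0.29 and 1.78 on arrays 1 to 4. The spread of Mt1 between arrays was thus larger than that of any member.

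**Figure D4:**
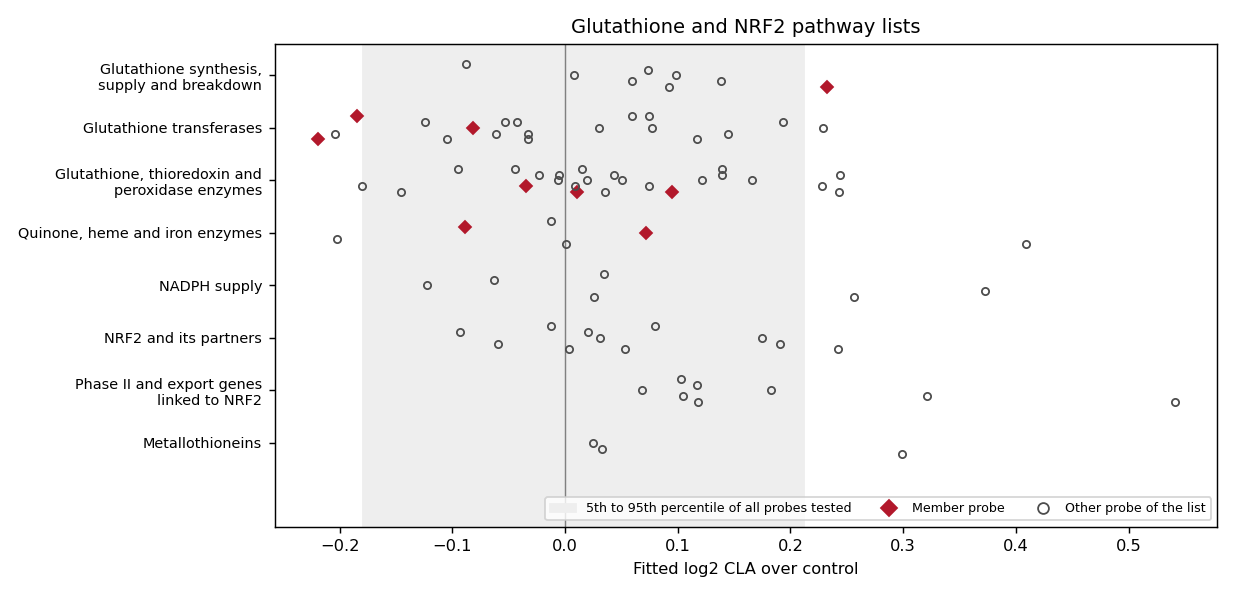
Fitted log2 effect of CLA over control (horizontal axis) for each tested probe of the 8 pathway lists, with red diamonds for members and open circles for other genes. The grey band runs from the 5th to the 95th percentile of all probes tested (-0.18 to 0.21). Gclm (0.23) lies above the band, Gsta3 (-0.22) lies below it, and Gstp1 (-0.184) lies just outside its lower edge of -0.180. The rightmost circle is Ephx1 (0.54). With median centring the probes outside the members lie mostly below 0 (50 of 76).

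The named genes with the pattern most like that of Gclm were sought by Euclidean distance over the 4 measured log2 ratios among 9738 named probes. Among the closest were Slc8b1, an ion exchanger (distance 0.0559), and Myo10, a myosin (0.0587). The probes closest to Gsta3 were those of Mrpl57, a mitochondrial ribosomal protein (0.0532), Olfr1182, an olfactory receptor (0.0588), and Angpt4, an angiopoietin (0.0705). Slc8b1 had measured log2 ratios of -0.12, -0.05, 0.44 and 0.55, and Mrpl57 of 0.11, 0.12, -0.57 and -0.53. No other member was among these genes.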

How the data were processed

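Liver RNA of CLA-fed and control mice was measured on 4 two-colour arrays. Agilent Feature Extraction produced the scanner files, per the file headers, with foreground and local background intensity in each dye, processed intensities after its own background and dye correction, and a log10 Cy5/Cy3 ratio. The log10 ratios of the deposited series matrix had slopes of 1.00, 1.00, -1.00 and -1.00 on those of the scanner, which gives their direction as CLA/control on each array. Column medians were 0.0010, -0.0023, -0.0020 and -0.0011, and the centring is unknown. For 775 probes the authors' deposited table has a p-value, a ratio and a fold change score with a sign, and 756 had the sign of the series matrix mean (r = 0.92).

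Intensities were corrected by normexp (offset 50) and loess within arrays in limma 3.58.1 (R 4.3.3). The 1075 control spots had weight 0 and were left out, outlier spots were set missing, and spots of a probe were averaged, giving log2 ratios. Testing needed a measurement on 3 or more arrays and, on 2 or more, a signal well above background for either diet; 20214 of 20868 probes met this. The linear model held a dye term and the diet, and p-values were adjusted over all probes tested. Of all probes, 8947 were named through RefSeq accessions and 1178 by description, with the GRCm38.p6 gene table, and 10743 stayed unnamed. Promoter windows are from RefSeq on GRCm38.p6. The number of arrays limits the precision.

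Members, lists and tests were chosen with earlier results of these data known. Named genes are all members, per list the 2 with the smallest p, and for Gclm and Gsta3 the 3 closest patterns, of which 1 is not reported here. Alternatives covered background, scaling, dye term, filter, spread model, gene summary, image analysis day and leaving out each array. Scaling the processed signals to a dye effect of equal size, and the counts of pathway probes by setting, were added after seeing the data.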

Additional observations from a re-analysis of the deposited data

How the results depend on the processing

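Under 17 alternatives (16 for the Gsr RefSeq probe) the number of member probes that passed the test stayed 0, except with median centring, where it was 1 (Gsta3). The number of pathway genes that passed stayed 0, except without array 3, where it was 2 (Ephx1 and Ftl1); leaving out each array in turn gave 0 to 2. Calls over the whole array were 14 as processed here and 149 with median centring, 31 with an intensity trend and 52 with a stricter filter. They were 0 with processed signals, no background subtraction, an offset of 10, no dye term or a dye effect of equal size (limma, 293 to 3421 probes at an unadjusted p under 0.05), and 44, 2, 61 and 72 without arrays 1 to 4. Gclm kept its sign in 17 of 17 (0.00092 to 0.26, adjusted p 0.0979 to 0.997), as did Gsta3 (-0.48 to -0.14, 0.0364 to 0.978) and Gstp1 (-0.47 to -0.08, 0.0775 to 0.978). These are not 17 separate checks. The fitted effects of these 3 probes could not move with no dye term, an intensity trend, other filters or 1 probe per symbol. The deposited log ratios gave the same effects as the processed signals. Direction turned for the Gsr RefSeq probe with median centring (-0.074) and for the second Gsr probe with no background subtraction (-0.017), with median centring (-0.19), and without array 1 (-0.016) or array 4 (-0.0086). It also turned for Txnrd1 with a dye effect of equal size (0.0025), the same on processed signals (0.0046) and without array 1 (0.0051), for Nqo1 without array 4, and without array 3 for Gstm1, Hmox1 and the Gsta4 probe. Leaving out each array in turn gave -0.016 to 0.038 for the second Gsr probe, -0.21 to 0.052 for Gstm1, -0.016 to 0.16 for Nqo1, -0.074 to 0.0051 for Txnrd1, -0.27 to 0.088 for Hmox1 and -0.16 to 0.14 for the Gsta4 probe. The cause of these turns was not tested. Without any 1 array, 1 array is alone in its dye orientation and is assumed to vary like the others. Array 2 was analysed as an image on another day than the rest, so that day as a block is the same as leaving out array 2. The dye effect was smaller on arrays 1 and 2 (slopes on the mean dye profile 0.78 and 0.73) than on arrays 3 and 4 (1.18 and 1.30), and diet and dye effects had r = -0.53 across probes, which are not independent replicates. Dim probes such as Nqo1 are limited by signal over background. Each ratio already pairs CLA with control within its array. A further block by array number could not be fitted, as each number belongs to 1 array and nothing would be left to compare.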

Other observations

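Of 8 tested probes whose description holds the word glutathione but that no symbol or RefSeq accession names, 6 lay below 0, over a range of -0.21 to 0.25 on the log2 scale. None passed the test, and 2 were at an unadjusted limma p under 0.05. Over all probes 52.3% lay above 0 and 15.9% were at that level. They were chosen by that word after the array's names were seen.

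A probe described as glutathione transferase GSTM7-7 stood at 0.25 ± 0.07 (adjusted p = 0.171), the opposite sign of the Gstm7 probe named through RefSeq (-0.20 ± 0.06). Its measured log2 ratio was -0.26 and -0.05 on arrays 1 and 2 and 0.74 and 0.56 on arrays 3 and 4, while that of the Gstm7 probe was below 0 on every array. The dye effects of these probes were -0.40 and -0.0080. Whether both probes measure the same transcript was not tested.

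A probe described as resembling microsomal glutathione S-transferase 2, an enzyme that also makes leukotrienes, stood at -0.07 ± 0.07 (adjusted p = 0.629). A probe described as holding a structure like the ATP-binding domain of glutathione synthetase stood at -0.21 ± 0.07 (adjusted p = 0.242), with a signed fold change of -1.57 and a p-value of 0.00019 in the authors' deposited table. The authors' deposited table lists the microsomal probe under Mgst2 with a signed fold change of -1.27 and a p-value of 0.00037. Pgls, of the pentose phosphate pathway, is in the authors' deposited table with a ratio of 1.45 and a p-value of 0.00083, and stood at 0.03 ± 0.07 here (adjusted p = 0.819). Mgst3 had 2 probes, at 0.19 ± 0.06 and 0.08 ± 0.06 (adjusted p = 0.22 and 0.51). On both, CLA liver was higher on 4 of 4 arrays as measured. Of all probes, 9.21% had the same sign on all 4 arrays. Gstm5, also with 2 probes, had fitted effects of opposite sign, -0.12 and 0.07. Pgls, Mgst3, Gstm5 and Mt2 are given outside the rule by p. Mt2, beside Mt1 the main liver metallothionein, had measured log2 ratios of -2.13, 0.25, -0.01 and 1.99 on arrays 1 to 4.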
